A study of Mus musculus with 4 samples.

Results

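Glycolysis and hypoxia response genes were followed here as a set of 36 genes, found by their symbols among the 38087 genes of the deposited read count table. The set holds 25 genes of glucose uptake, glycolysis and lactate handling and 11 genes of oxygen sensing or of the response to low oxygen. Rows were matched by symbol alone, with no threshold on a measured value, although the set was drawn up with earlier results of these data known. The table covers 4 mouse libraries of ribosome-depleted total RNA, all from C57BL/6 mice at postnatal week 20, read on an Ion Torrent instrument. The 2 wild-type (WT) libraries came from cervical lymph nodes, the lymph nodes of the neck. The 2 Becn1-M-KO libraries (KO below) came from B cell lymphomas of the neck in mice with a myeloid-specific deletion of Becn1, the gene of the autophagy protein Beclin 1. Genotype and tumour go together in every library, so their parts in a difference cannot be told apart, and no library from a knockout without a tumour or from a tumour with intact Becn1 was used. The promoter that drove the deletion in myeloid cells is not given in the sources used here, and the deletion was not aimed at the B cells that form the lymphoma. Nothing in the labels ties the replicates to separate animals, so every p-value measures the spread between these libraries, which may be technical.

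Glycolysis splits glucose into pyruvate in the cytosol. Glucose enters through transporters, is trapped by hexokinase, committed by phosphofructokinase, and leaves as pyruvate that is either burnt in mitochondria or reduced to lactate and exported. Hypoxia-inducible factor 1 (HIF-1) is a transcription factor whose alpha subunit is hydroxylated by the EGLN enzymes and destroyed when oxygen is plentiful. When oxygen is low it accumulates and activates genes of glucose uptake, glycolysis, angiogenesis and mitophagy. Much of this control acts on the HIF-1 alpha protein, which RNA counts do not measure. Activated lymphocytes and macrophages are both known for high glycolysis.

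HIF-1 binds DNA at the hypoxia response element, whose core is CGTG preceded by A or G. The letters ACGTG and GCGTG were searched on both strands in the 250 bases before the annotated start of each gene, in RefSeq promoters of GRCm38.p6; a palindromic CACGTG counts once on each strand. Of the 36 genes, 33 had a promoter in that table, and Bnip3l, Ndrg1 and Slc2a3 had none. ACGTG was found in at least 1 window of 20 of the 33 genes (60.6%), against 18.5% of all 27025 gene symbols in the table, and in 23 of 47 member windows, against 16.6% of all 32851 windows of the same length. A match is only a run of letters and is not a measured binding site. The 5 windows below were chosen after the values were seen. Hk3 and Slc16a3 were the members higher in KO in the test of all 4 libraries, and Pgk1 had the smallest p of the 6 lower glycolysis genes. Ldhb was among the 3 lowest members against WT replicate 2, and Ldha, whose own difference was small, is shown as the gene of the partner subunit of lactate dehydrogenase. Each is given 5′ to 3′ on the strand of its gene, and capitals mark matches of either motif on either strand.
Hk3 (chr13:55021386-55021635, minus strand): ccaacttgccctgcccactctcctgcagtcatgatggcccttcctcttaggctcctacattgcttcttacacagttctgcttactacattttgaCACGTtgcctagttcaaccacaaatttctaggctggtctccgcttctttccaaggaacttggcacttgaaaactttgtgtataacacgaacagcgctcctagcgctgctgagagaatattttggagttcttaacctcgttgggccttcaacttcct
Slc16a3 (chr11:120948817-120949066, plus strand): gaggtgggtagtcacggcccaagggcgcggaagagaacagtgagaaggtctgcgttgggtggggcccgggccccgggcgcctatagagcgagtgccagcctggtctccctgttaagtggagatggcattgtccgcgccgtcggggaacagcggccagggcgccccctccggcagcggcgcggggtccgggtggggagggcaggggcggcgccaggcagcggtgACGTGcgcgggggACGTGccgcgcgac
Pgk1 (chrX:106186850-106187099, plus strand): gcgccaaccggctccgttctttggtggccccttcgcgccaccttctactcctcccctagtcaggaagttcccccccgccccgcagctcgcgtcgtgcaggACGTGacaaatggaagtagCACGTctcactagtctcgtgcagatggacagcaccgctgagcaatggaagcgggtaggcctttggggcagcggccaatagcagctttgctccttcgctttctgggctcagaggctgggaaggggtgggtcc
Ldha (chr7:46845554-46845803, plus strand): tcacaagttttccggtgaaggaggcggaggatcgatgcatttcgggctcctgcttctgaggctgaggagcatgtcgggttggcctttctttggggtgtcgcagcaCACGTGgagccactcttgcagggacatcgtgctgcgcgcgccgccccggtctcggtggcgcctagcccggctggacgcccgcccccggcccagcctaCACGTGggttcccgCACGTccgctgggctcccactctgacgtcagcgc
Ldhb (chr6:142507958-142508207, minus strand): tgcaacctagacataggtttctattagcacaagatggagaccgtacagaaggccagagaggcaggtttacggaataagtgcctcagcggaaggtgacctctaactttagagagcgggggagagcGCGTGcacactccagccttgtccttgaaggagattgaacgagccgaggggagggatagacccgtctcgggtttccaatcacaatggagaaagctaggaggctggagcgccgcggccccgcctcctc
The Ldha window printed, 1 of 2 annotated for the gene, held 5 matches of ACGTG, while the other (chr7:46846832-46847081) held 0 of ACGTG and 1 of GCGTG. The Slc16a3 and Pgk1 windows held 2 matches of ACGTG each and the Hk3 window 1. The Ldhb window held 0 matches of ACGTG and 1 of GCGTG.

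The libraries held between 15604247 and 20067004 reads assigned to genes. The floor set here for a count of 0 was 3 reads, or 0.149 to 0.192 counts per 1000000 reads (CPM) of these totals. WT replicate 1 stood apart. Its most abundant gene, Spt1, a salivary protein gene, took 32.0% of its reads, and the sums of its 10 B cell and 10 T cell marker levels were 99.6 and 11.7 CPM against 1564 and 634 CPM in WT replicate 2, so the defining lymphocyte markers were scarce in a library labelled lymph node. The 10 gland and epithelial markers, by contrast, summed to 2803 CPM in WT replicate 1, 1096 in WT replicate 2, 9.10 in KO replicate 1 and 15.5 in KO replicate 2. WT replicate 2 was thus not free of gland and epithelial RNA, and its most abundant gene was Dcpp2, at 5.76% of its reads. In KO replicates 1 and 2 the most abundant gene was Ighg2c, at 1.51% and 1.45%. Most results below are therefore given over all 4 libraries, and many of them also against 1 or both WT libraries alone. Becn1 itself was measured at 54.8 and 63.4 CPM (WT) against 49.5 and 53.3 CPM (KO), a log2 fold change of -0.20 (SE 0.21, edgeR adjusted p = 0.557); with the deletion placed in myeloid cells only, this does not check the labels. Read counts of Xist, the RNA of X inactivation, were 2088 and 5314 for WT against 3 and 34 for KO. Those of the Y-linked Eif2s3y were 1 and 6 for WT against 767 and 1083 for KO, so sex also goes with genotype here.

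Across all 4 libraries, 2 of the 36 genes passed the test, both higher in KO: Hk3, a hexokinase of myeloid cells, and Slc16a3, the lactate exporter MCT4. The test was edgeR's quasi-likelihood test on reads scaled by trimmed mean of M values (TMM), with Benjamini-Hochberg adjustment over the 20695 genes tested and a threshold of 0.05. All 36 members passed its filter on low counts. Of all genes tested, 1.04% passed as higher and 2.18% as lower. No member passed as lower with edgeR, and 0 is also the count with limma-voom, while DESeq2 gave 4 lower and 7 higher members. Among all 20695 genes DESeq2 gave 2430 lower and 1325 higher. At an unadjusted p under 0.05, 11 members were higher and 5 lower, against 10.5% and 16.4% of all genes. The fold change was positive for 22 members and negative for 14, with a median log2 fold change of 0.58 against 0.01 over all genes tested. Both KO libraries lay above both WT libraries for 21 members and below both for 8, and the groups overlapped for 7; over all genes tested, 34.3% lay above and 33.3% below. Scaling by library totals alone moved the median of all genes to 0.60 and that of the members to 1.21. A change of scaling moves all genes of a library alike, so the similar excess of the members over all genes is no separate support.

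The 25 glycolysis genes and the 11 hypoxia genes are described in turn. Among glycolysis genes 18 had a positive fold change over all 4 libraries, with a median of 0.73 on the log2 scale, and 17 had both KO libraries above both WT libraries. Among hypoxia genes 4 were positive and 7 negative, with a median of -0.20, and 4 lay above, 3 below and 4 overlapped. The difference between these medians was not tested. In the levels below, the 4 values are TMM-scaled CPM in the order WT replicate 1, WT replicate 2, KO replicate 1, KO replicate 2, and "log2" is the difference KO minus WT; levels are not corrected for gene length and are compared only within a gene.

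**Figure D1:**
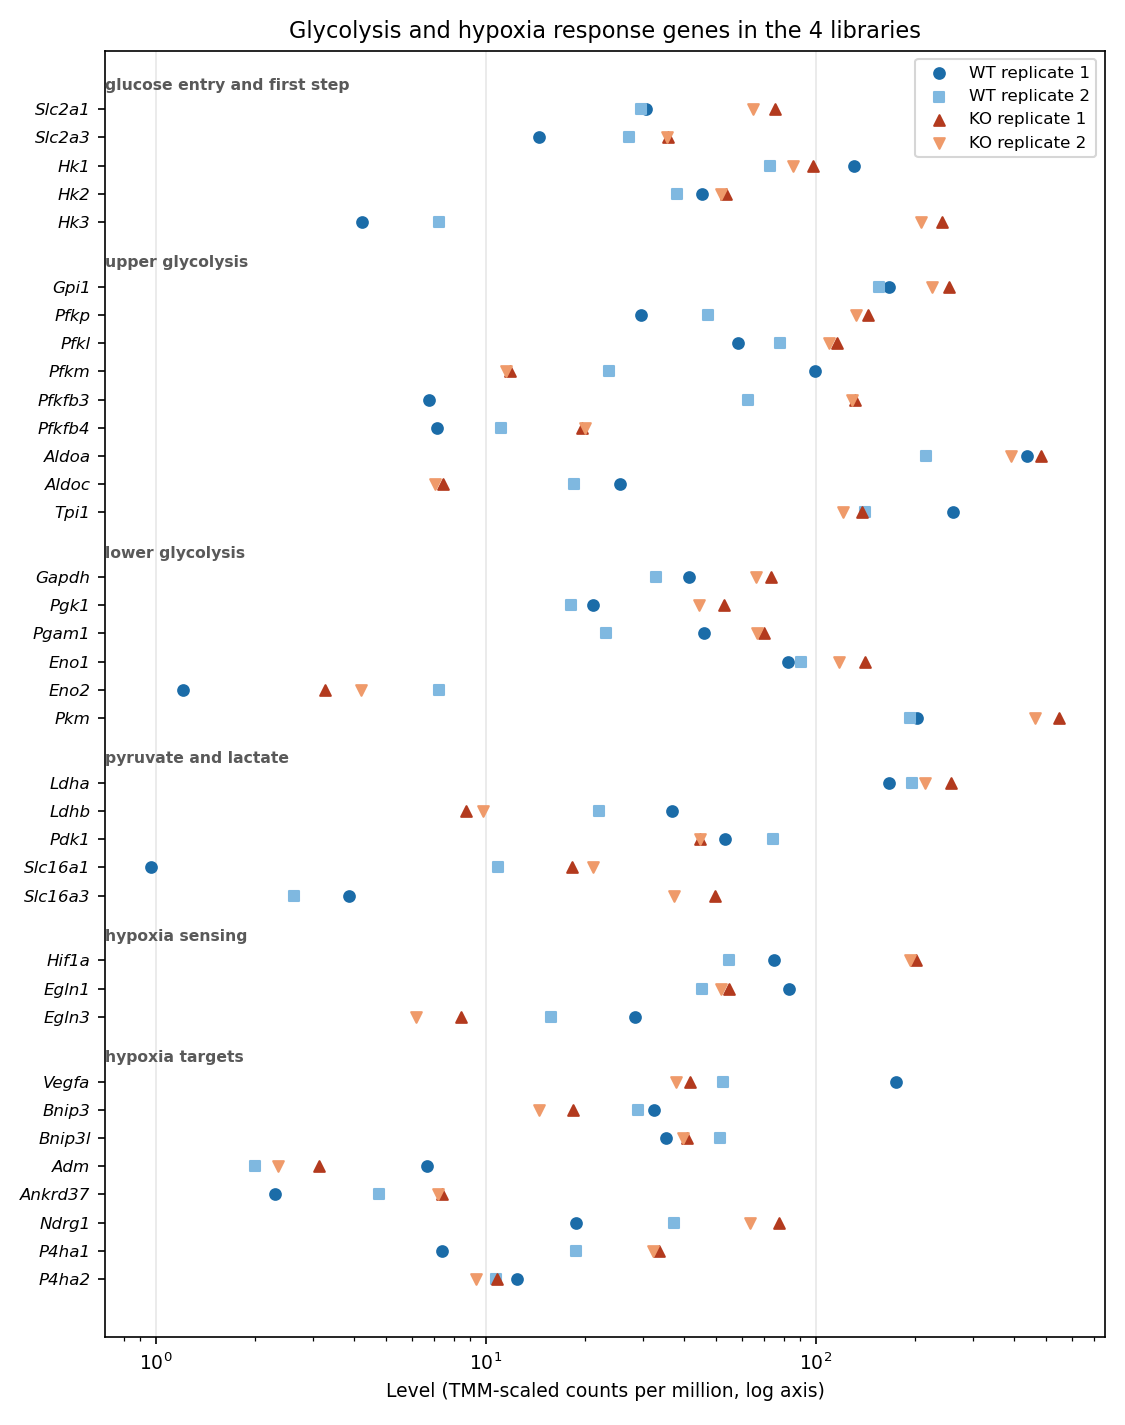
TMM-scaled CPM of the 36 genes in each of the 4 libraries on a log axis, grouped by role; each point is 1 library. Hk3 and Slc16a3 show the widest gap between the groups, and for many genes, such as Pfkfb3 and Slc16a1, the WT libraries lie farther from each other than the KO libraries do.

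Among the 5 genes of glucose entry and the first step, Hk3 rose in KO. Hk3 (chr13:55005985-55021385, minus strand) had 35, 152, 4812 and 5411 reads, or 4.23, 7.25, 242 and 208 CPM. Its KO values lay far above both WT values, with a log2 fold change of 5.28 (38.9-fold, SE 0.43, adjusted p = 0.0435). The difference was 4.96 against WT replicate 2 alone (adjusted p = 1.23e-09) and 5.72 against WT replicate 1 alone (adjusted p = 4.91e-11). Hk3 is known from neutrophils, monocytes and macrophages, and the marker sums of these cells were also higher in KO, though not every marker was. Of 12 monocyte and macrophage markers, 11 were found and summed to 345, 1249, 2165 and 2028 CPM, with none at 0 in any library. All 10 neutrophil markers were found and summed to 8.21, 27.8, 72.7 and 80.1 CPM, with S100a8, S100a9, Ly6g, Camp and Elane at 0 reads in WT replicate 1. Against WT replicate 2 alone, 8 of the 11 monocyte and macrophage markers passed as higher and 3 as lower. Of 8 neutrophil markers tested, 3 passed as higher and 1 as lower, where 20.9% and 22.8% of all genes did so. Against WT replicate 1 alone these counts were 9 and 0, and 6 and 1, where 32.3% and 32.5% of all genes did so. The part of these cells in the Hk3 result was not tested. In bulk tissue more cells of a type and more RNA per cell cannot be told apart.

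The ubiquitous transporter Slc2a1 (GLUT1) and the high-affinity transporter Slc2a3 (GLUT3) had positive differences against both WT libraries. Slc2a1 stood at 30.7, 29.7, 75.1 and 64.8 CPM (log2 1.21, 2.32-fold, SE 0.20, adjusted p = 0.0656). Its WT values nearly coincided and its KO values were more than doubled, although the adjusted p stayed above the threshold. Gm12868, on the opposite strand, overlaps Slc2a1 and held 53.3% as many reads. Slc2a3 stood at 14.5, 27.2, 35.8 and 35.6 CPM (log2 0.77, SE 0.37, adjusted p = 0.267). Differences were smaller for the other hexokinases. Hk2, the form induced by growth signals, had 45.2, 38.0, 53.5 and 51.8 CPM (log2 0.34, adjusted p = 0.351). Hk1, the form of most tissues, had 131, 72.9, 98.3 and 85.6 CPM, with the KO values between the WT values. Its log2 fold change was -0.15 (SE 0.37, edgeR adjusted p = 0.818), and 0.63 with library totals alone. Hk1 differed by 0.34 from WT replicate 2 alone and by -0.52 from WT replicate 1 alone.

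In upper glycolysis, which turns glucose 6-phosphate into triose phosphates, none of the 9 genes passed the test of all 4 libraries and the 3 forms of phosphofructokinase did not share a direction. Phosphofructokinase, the committing step, has platelet (Pfkp), liver (Pfkl) and muscle (Pfkm) forms. Pfkp stood at 29.6, 47.2, 144 and 132 CPM (log2 1.85, 3.60-fold, SE 0.33, adjusted p = 0.0704). Pfkl stood at 58.3, 78.0, 116 and 110 CPM (log2 0.73, adjusted p = 0.182). Pfkm had a negative difference, with 99.6, 23.6, 11.9 and 11.5 CPM (log2 -2.39, SE 0.77, adjusted p = 0.156), and its WT libraries differed more from each other than WT replicate 2 differed from KO. Against WT replicate 2 alone the log2 differences of Pfkp, Pfkl and Pfkm were 1.56, 0.54 and -1.01. Against WT replicate 1 alone they were 2.21, 0.94 and -3.11. A neighbouring gene, Senp1, overlaps Pfkm and held 148% as many reads as Pfkm, so reads in the shared stretch may be split between them. Pitrm1, on the opposite strand, overlaps Pfkp and held 34.7% as many reads.

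Among the aldolases the negative difference was that of Aldoc. Aldoc, the brain form of the enzyme that cleaves fructose 1,6-bisphosphate, stood at 25.6, 18.6, 7.44 and 7.01 CPM (log2 -1.61, SE 0.27, adjusted p = 0.0651). Both KO values were below both WT values, and Aldoc fell by 1.36 against WT replicate 2 alone (adjusted p = 1.76e-05) and by 1.84 against WT replicate 1 alone (adjusted p = 3.29e-07). Aldoa, the form of muscle and most other tissues, overlapped between groups at 437, 216, 481 and 390 CPM (log2 0.42, SE 0.47, adjusted p = 0.596). Aldoa rose by 1.02 against WT replicate 2 (adjusted p = 0.000907) and differed by -0.02 from WT replicate 1 (adjusted p = 0.942), so its direction rests on which WT library is used. Of the remaining upper genes, the bifunctional enzymes Pfkfb3 and Pfkfb4 set the level of fructose 2,6-bisphosphate, the activator of phosphofructokinase. Pfkfb3 stood at 6.76, 62.4, 131 and 129 CPM (log2 1.91, SE 1.08, adjusted p = 0.327), with a log2 difference of 1.07 against WT replicate 2 and 4.25 against WT replicate 1. Pfkfb4 stood at 7.13, 11.1, 19.7 and 20.0 CPM (log2 1.11, adjusted p = 0.125). The isomerase gene Gpi1 had 167, 156, 254 and 226 CPM (log2 0.57, adjusted p = 0.255). The triose phosphate isomerase gene Tpi1 had 261, 141, 139 and 121 CPM (log2 -0.63, adjusted p = 0.368), with KO close to WT replicate 2 (log2 -0.11, adjusted p = 0.494).

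Lower glycolysis, which harvests ATP and ends in pyruvate, had a median log2 fold change of 0.94 over its 6 genes, and none of the 6 passed the test of all 4 libraries. Pgk1, the first ATP-forming enzyme of the pathway, stood at 21.1, 18.1, 52.7 and 44.3 CPM (log2 1.31, 2.47-fold, SE 0.22, adjusted p = 0.0656). Its WT values were close together, both KO values were above them, and Pgk1 rose by 1.42 and 1.18 against WT replicates 2 and 1 alone (adjusted p = 4.81e-06 and 1.45e-05). Pgk1 lies on the X chromosome, and sex differs between the groups. The pyruvate kinase gene Pkm stood at 203, 193, 548 and 461 CPM (log2 1.35, 2.54-fold, SE 0.31, adjusted p = 0.0955). Pgam1, the phosphoglycerate mutase of most tissues, stood at 46.0, 23.2, 69.8 and 66.3 CPM (log2 0.98, adjusted p = 0.218). Eno1, the widely expressed enolase, stood at 82.2, 90.3, 141 and 117 CPM (log2 0.58, adjusted p = 0.228). For all 3 of these genes both KO libraries were above both WT libraries. Eno2, the enolase of neurons, overlapped between groups at 1.21, 7.20, 3.27 and 4.20 CPM, from 10, 151, 65 and 109 reads. Its fold change was negative against WT replicate 2 (log2 -0.93, adjusted p = 0.0071) and positive against WT replicate 1 (log2 1.62, adjusted p = 0.00604).

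Several of these enzymes have processed pseudogenes, near-identical copies whose reads the counting may have split from the parent. Pseudogenes matched 11 members, on the basis of at least 90% identity over at least 50% of the pseudogene's length. For Gapdh, the glyceraldehyde phosphate dehydrogenase, the parent row held 343, 687, 1458 and 1709 reads while its 82 pseudogenes held 7712, 11534, 26022 and 27901. The pseudogene rows thus held 94.2% to 95.7% of the family's reads in the 4 libraries, and the parent's 41.4, 32.8, 73.3 and 65.8 CPM (log2 0.91, adjusted p = 0.113) do not measure the level of Gapdh. Pseudogenes also held 78.5% to 83.5% of the family reads for Pgk1, 65.7% to 74.5% for Eno1, 54.9% to 59.8% for Pgam1 and 39.4% to 44.8% for Gpi1. For Bnip3l, Ldhb and Bnip3 they held 27.0% to 44.1%, 19.4% to 33.1% and 15.5% to 32.3%. With their reads added to the parent, a step chosen after seeing the data, the log2 fold change over all 4 libraries was 0.70 for Gapdh, 1.09 for Pgk1, 0.38 for Eno1, 0.91 for Pgam1 and 0.54 for Gpi1. It was -0.21 for Bnip3l, -1.85 for Ldhb and -0.69 for Bnip3, so the values of these 8 genes are uncertain, although the sign over all 4 libraries was the same both ways. Against WT replicate 1 alone the addition turned Bnip3l from 0.18 to -0.14 and ended the calls of Gapdh, Eno1 and Gpi1 (adjusted p = 0.471, 0.307 and 0.0728).

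In the handling of pyruvate and lactate, Slc16a3 rose in KO. Slc16a3 (chr11:120948480-120960868, plus strand) had 32, 55, 986 and 967 reads, or 3.86, 2.62, 49.6 and 37.3 CPM. Both KO values were far above both WT values, with a log2 fold change of 3.76 (13.5-fold, SE 0.34, adjusted p = 0.0441). The difference was 4.05 against WT replicate 2 alone (adjusted p = 3.77e-08) and 3.47 against WT replicate 1 alone (adjusted p = 4.83e-08). The calls of both Hk3 and Slc16a3 sit close to the threshold. With library totals alone their adjusted p was 0.067 and 0.052, and it lay between 0.294 and 0.324 for both genes when either KO library was left out, which leaves 1 KO library that is assumed to vary like the WT pair. Slc16a1 (MCT1), the other proton-coupled lactate carrier of the set, had 8, 228, 364 and 551 reads, or 0.966, 10.9, 18.3 and 21.2 CPM (log2 1.69, SE 1.07, adjusted p = 0.366). WT replicate 1 held few of its reads, and the log2 difference was 0.87 against WT replicate 2 alone (adjusted p = 0.000614) and 4.33 against WT replicate 1 alone.

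Lactate dehydrogenase is built from Ldha and Ldhb subunits, and their genes differed in direction. Ldhb stood at 36.8, 22.0, 8.75 and 9.83 CPM (log2 -1.66, SE 0.34, adjusted p = 0.0815). Both KO values were below both WT values, and Ldhb fell by 1.24 against WT replicate 2 alone (adjusted p = 2.24e-05) and by 2.0 against WT replicate 1 alone (adjusted p = 4.88e-08). Ldha stood at 167, 196, 256 and 214 CPM (log2 0.37, SE 0.28, adjusted p = 0.436), with the lower KO value near the higher WT value. Pdk1, a kinase that inhibits pyruvate dehydrogenase and a known HIF-1 target, stood at 53.1, 74.2, 44.6 and 44.5 CPM (log2 -0.52, adjusted p = 0.280), lower in both KO libraries. With library totals alone its fold change was close to 0. The log2 difference of Pdk1 was -0.73 against WT replicate 2 alone and -0.27 against WT replicate 1 alone.

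Among the 3 oxygen-sensing genes, Hif1a was higher in KO and Egln3 lower, and neither passed the test of all 4 libraries. Hif1a, the oxygen-regulated subunit of HIF-1, stood at 74.9, 54.8, 201 and 194 CPM (log2 1.61, 3.05-fold, SE 0.29, adjusted p = 0.0703). Both KO values were well above both WT values, and Hif1a rose by 1.86 and 1.38 against WT replicates 2 and 1 alone (adjusted p = 2.85e-07 and 4.38e-07). An annotated gene on the opposite strand, Gm15283, overlaps Hif1a and held 97.0% as many reads, and whether the counting used strand is not given in the sources used here. Egln3, a prolyl hydroxylase that marks HIF-1 alpha for destruction and is itself induced by HIF, stood at 28.4, 15.8, 8.45 and 6.16 CPM (log2 -1.59, SE 0.40, adjusted p = 0.111). Egln3 fell by 1.12 against WT replicate 2 alone (adjusted p = 0.000508) and by 1.99 against WT replicate 1 alone (adjusted p = 6.86e-07). Egln1, the main oxygen sensor of the family, overlapped between groups at 83.2, 45.3, 54.6 and 51.7 CPM (log2 -0.27, SE 0.36, adjusted p = 0.654; 0.51 with library totals alone).

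The 8 hypoxia targets split evenly against each WT library, with 3 higher and 3 lower past the threshold in each comparison, and none passed over all 4 libraries. Of all genes, 20.9% passed as higher and 22.8% as lower against WT replicate 2, and 32.3% and 32.5% against WT replicate 1. Bnip3, a mitophagy receptor, had the smallest p of the 8 and stood at 32.5, 29.0, 18.4 and 14.6 CPM (log2 -0.90, SE 0.23, adjusted p = 0.111). Both KO values were below both WT values, and Bnip3 fell by 0.82 and 1.0 against WT replicates 2 and 1 alone (adjusted p = 0.000735 and 0.000106). Vegfa, the angiogenic growth factor, stood at 176, 52.4, 41.5 and 37.7 CPM (log2 -1.52, SE 0.65, adjusted p = 0.231), so most of its difference lay between the WT libraries. The log2 difference of Vegfa was -0.40 against WT replicate 2 alone and -2.16 against WT replicate 1 alone. Higher in both KO libraries were Ndrg1, a stress-responsive gene, with 18.8, 37.2, 77.3 and 63.3 CPM (log2 1.32, adjusted p = 0.147; 53.0% as many reads on the overlapping Gm17035), and P4ha1, a collagen prolyl hydroxylase subunit, with 7.37, 18.8, 33.4 and 32.1 CPM (log2 1.31, adjusted p = 0.202). Ankrd37 stood at 2.29, 4.77, 7.39 and 7.17 CPM (log2 1.02, adjusted p = 0.242), but the gene Ufsp2, which overlaps it, held 463% as many reads. The 3 remaining targets overlapped between the groups. Adm, the vasodilator peptide adrenomedullin, stood at 6.64, 2.0, 3.12 and 2.35 CPM. Bnip3l, a second mitophagy receptor, stood at 35.1, 51.3, 40.7 and 39.6 CPM. P4ha2, another collagen prolyl hydroxylase subunit, stood at 12.4, 10.7, 10.8 and 9.36 CPM. These 3 genes had log2 fold changes of -0.63, -0.11 and -0.20 (adjusted p = 0.579, 0.811 and 0.628), which turned positive with library totals alone.

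Each WT library alone gave many more calls than the pair; the fit then takes its spread from the 2 KO libraries, which were close. Over the 36 genes the median absolute log2 difference between replicates was 0.71 in WT (largest 3.49) and 0.17 in KO (largest 0.45). Against WT replicate 2 alone, 22 members passed as higher and 9 as lower, where 20.9% and 22.8% of all 21844 genes tested did so, and the median member difference was 0.53 against 0.0045 over all genes. Against WT replicate 1 alone, 21 members passed as higher and 10 as lower, where 32.3% and 32.5% of all 21327 genes tested did so, with a median of 0.59 against 0.06; with pseudogene reads added, 18 passed as higher and 10 as lower. With library totals alone these last counts were 29 and 5, and the median of all genes moved to 1.39. In both comparisons the lone WT library is assumed to vary like the KO pair, so these p-values say nothing of the spread between WT lymph nodes. The 2 comparisons share the KO libraries, so calls in both are not independent of each other. The sign differed between them for 6 members, and the share of all genes for which it did was not computed.

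Calls by role are given against each WT library, and differences between the roles were not tested. Of all genes, 20.9% passed as higher and 22.8% as lower against WT replicate 2, and 32.3% and 32.5% against WT replicate 1. All 5 genes of glucose entry passed as higher against WT replicate 2, and 3 passed as higher and 1 as lower against WT replicate 1. In upper glycolysis 6 passed as higher and 2 as lower against WT replicate 2, and 5 and 3 against WT replicate 1. In lower glycolysis 5 passed as higher and 1 as lower against WT replicate 2, and all 6 as higher against WT replicate 1, where Eno2 makes the difference. Of those 6, Gapdh and Eno1 did not pass against WT replicate 1 once pseudogene reads were added. Among the 11 hypoxia genes 4 passed as higher and 4 as lower against WT replicate 2, and 4 and 5 against WT replicate 1.

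**Figure D2:**
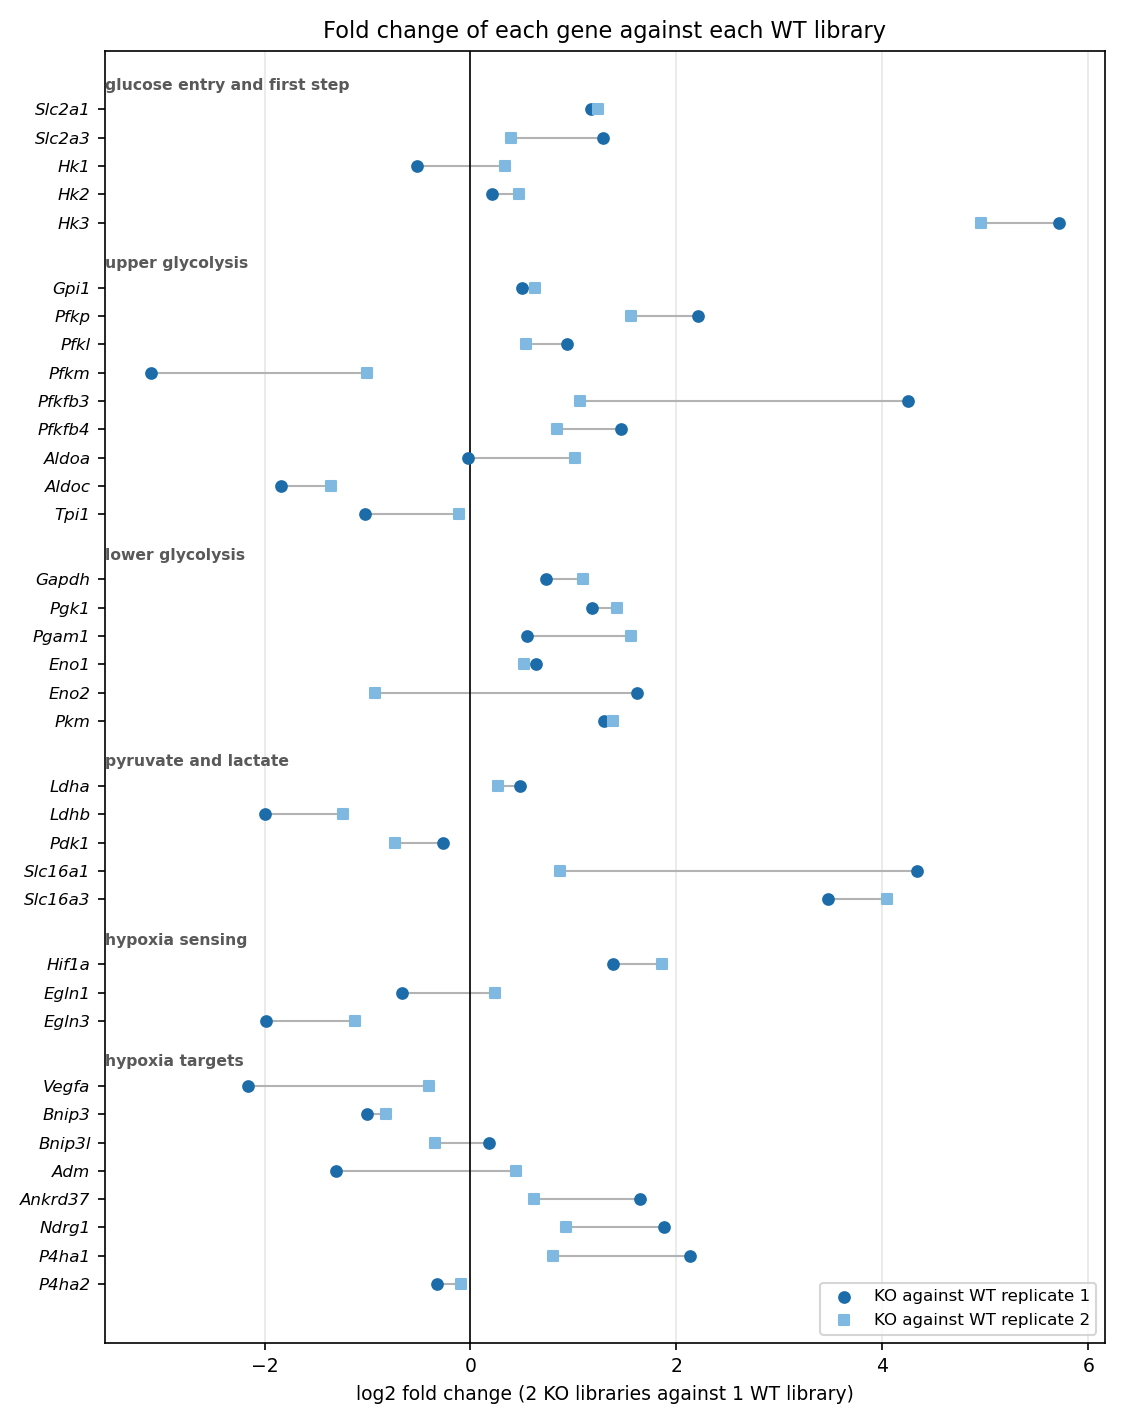
Log2 fold change of the 2 KO libraries against WT replicate 1 and against WT replicate 2 for each of the 36 genes, by role. Hk3, Slc16a3, Hif1a and Pgk1 lie to the right of 0 against both WT libraries and Aldoc, Ldhb, Egln3 and Bnip3 to the left, while Pfkfb3, Slc16a1 and Pfkm are displaced far more against WT replicate 1.

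Ratios of reads between 2 members within 1 library do not depend on how libraries are scaled, although they depend on gene length and are not ratios of molecules. Pseudogene reads were not added for them, and reads split with pseudogenes or overlapping genes may shift those with Ldhb, Bnip3, Bnip3l, Eno1 or Pfkm. For Ldhb, pseudogenes held 33.1% and 23.0% of the family reads in WT and 19.4% and 20.1% in KO. Of 13 read ratios, chosen as pairs of isozymes or related genes, 4 were above both WT values in both KO libraries, 6 were below and 3 overlapped. No such share was computed for other gene pairs. Of all single genes tested, 34.3% lay above and 33.3% below, so these counts are not read as a result about the pairs. The ratio of Hk3 to Hk1 reads was 0.032 and 0.099 in WT and 2.46 and 2.44 in KO, a log2 difference of group means of 5.43. The Ldha to Ldhb ratio was 4.54 and 8.88 in WT and 29.3 and 21.8 in KO (log2 difference 1.99). In phosphofructokinase the Pfkp to Pfkl ratio went from 0.507 and 0.606 in WT to 1.24 and 1.20 in KO (log2 difference 1.14), and the Pfkm to Pfkl ratio from 1.71 and 0.303 to 0.102 and 0.105 (log2 difference -2.80; -1.55 without WT replicate 1). All these ratios separated the groups, with the KO values close together except for Ldha to Ldhb (standard deviation 0.30 on the log2 scale in KO). The Aldoc to Aldoa ratio was 0.059 and 0.086 in WT and 0.015 and 0.018 in KO (log2 difference -2.09). The Egln3 to Egln1 ratio was 0.341 and 0.349 in WT and 0.155 and 0.119 in KO (log2 difference -1.34), and here the WT libraries nearly coincided despite their other differences. The P4ha2 to P4ha1, Pfkfb4 to Pfkfb3 and Bnip3 to Bnip3l ratios were also lower in both KO libraries, with log2 differences of -1.67, -1.51 and -0.83, and the Hk2 to Hk1 ratio was higher by 0.43. Without WT replicate 1 these 4 differences were -0.89, -0.22, -0.47 and 0.14, and without WT replicate 2 they were -2.46, -2.79, -1.18 and 0.73. The ratios Slc2a3 to Slc2a1, Slc16a3 to Slc16a1 and Eno2 to Eno1 overlapped, and the sign of their differences (-0.36, 1.15 and -0.25) turned without WT replicate 2 (0.11, -0.88 and 0.97). No test was made of the ratios; the smallest p of an exact permutation test of 2 against 2 is 0.33.

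**Figure D3:**
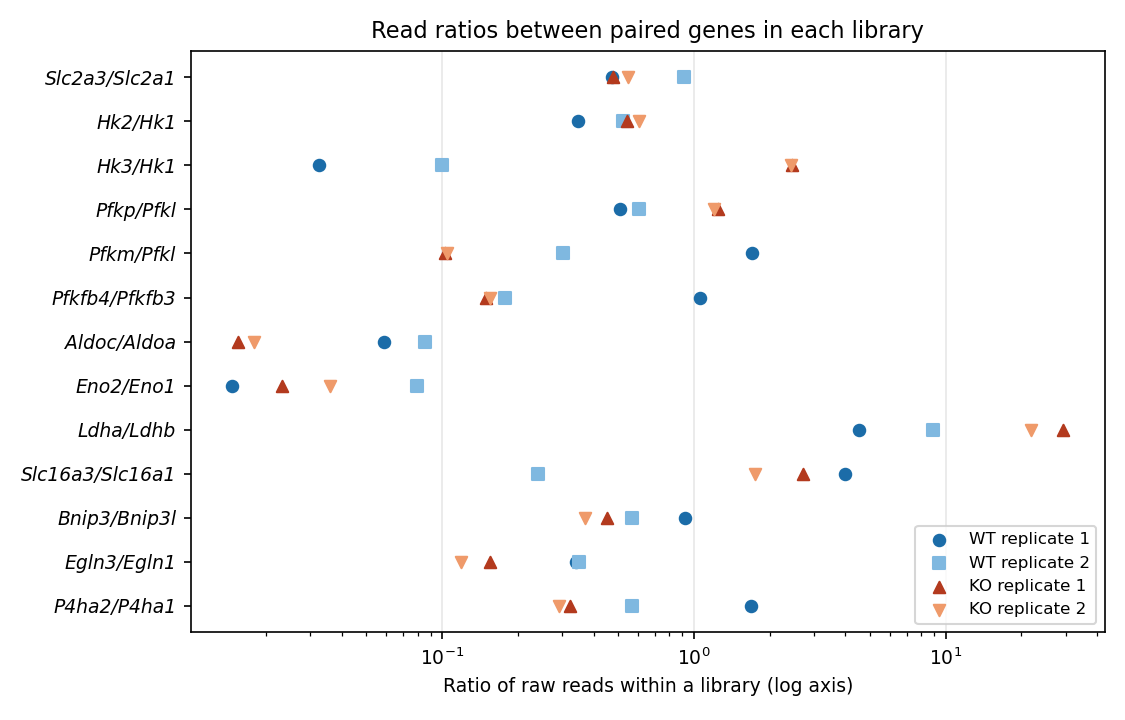
Ratio of reads between pairs of members within each library on a log axis; each point is 1 library. The Hk3 to Hk1 ratio is 2.46 and 2.44 in KO against 0.032 and 0.099 in WT, and the Ldha to Ldhb ratio is 29.3 and 21.8 against 4.54 and 8.88.

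Other genes of the same pathways were read from lists of their own. Of 18 further glycolytic isozymes and sugar or lactate transporters found, 13 were tested, and Slc16a7 (MCT2), a high-affinity monocarboxylate carrier, fell in KO. Slc16a7 stood at 23.2, 15.5, 2.41 and 2.74 CPM (log2 -2.90, 7.48-fold lower, SE 0.33, adjusted p = 0.047), the opposite direction to Slc16a3. Both KO values were far below both WT values. Among 13 genes of pyruvate entry into mitochondria (the pyruvate carrier, the pyruvate dehydrogenase complex and its kinases and phosphatases), 0 passed the edgeR test. At an unadjusted p under 0.05, 0 were higher and 4 lower, against 10.5% and 16.4% of all genes. Of these 13 genes 12 had a negative fold change, with a median of -0.89 on the log2 scale, and 11 had both KO libraries below both WT libraries (33.3% of all genes). That list depended on the WT library: its median was -0.27 against WT replicate 2 alone and -1.25 against WT replicate 1 alone. The largest KO to WT contrast in the list was the kinase Pdk4, at 10.3, 4.39, 0.252 and 0.347 CPM (log2 -4.55, adjusted p = 0.0542). The KO values of Pdk4 rest on 5 and 9 reads.

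Of 28 other hypoxia-induced genes, 1 rose and 2 fell over all 4 libraries, where 1.04% and 2.18% of all genes did so. Their median log2 fold change was 0.05. Nampt, which makes an NAD precursor, stood at 29.7, 41.8, 226 and 219 CPM (log2 2.63, 6.21-fold, SE 0.30, adjusted p = 0.0475). Car12, a membrane carbonic anhydrase, stood at 354, 202, 2.52 and 1.70 CPM (log2 -7.04, SE 0.54, adjusted p = 0.0435), and Hilpda, a lipid droplet protein, at 19.3, 18.5, 6.04 and 5.47 CPM (log2 -1.72, SE 0.23, adjusted p = 0.0497). Car12 is also an epithelial gene, and the gland and epithelial marker sum moved with it (2803, 1096, 9.10 and 15.5 CPM), where Aqp5, Cldn3 and Krt8 had 0 reads in KO replicate 1; its part in the Car12 result was not tested. With library totals alone the adjusted p was 0.051 for Car12, 0.158 for Nampt and Slc16a7 and 0.5 for Hilpda. Of the 28 genes 11 passed as higher and 11 as lower against WT replicate 2 alone, where 20.9% and 22.8% of all genes did so. Against WT replicate 1 alone 11 passed as higher and 10 as lower, where 32.3% and 32.5% of all genes did so.

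**Figure D4:**
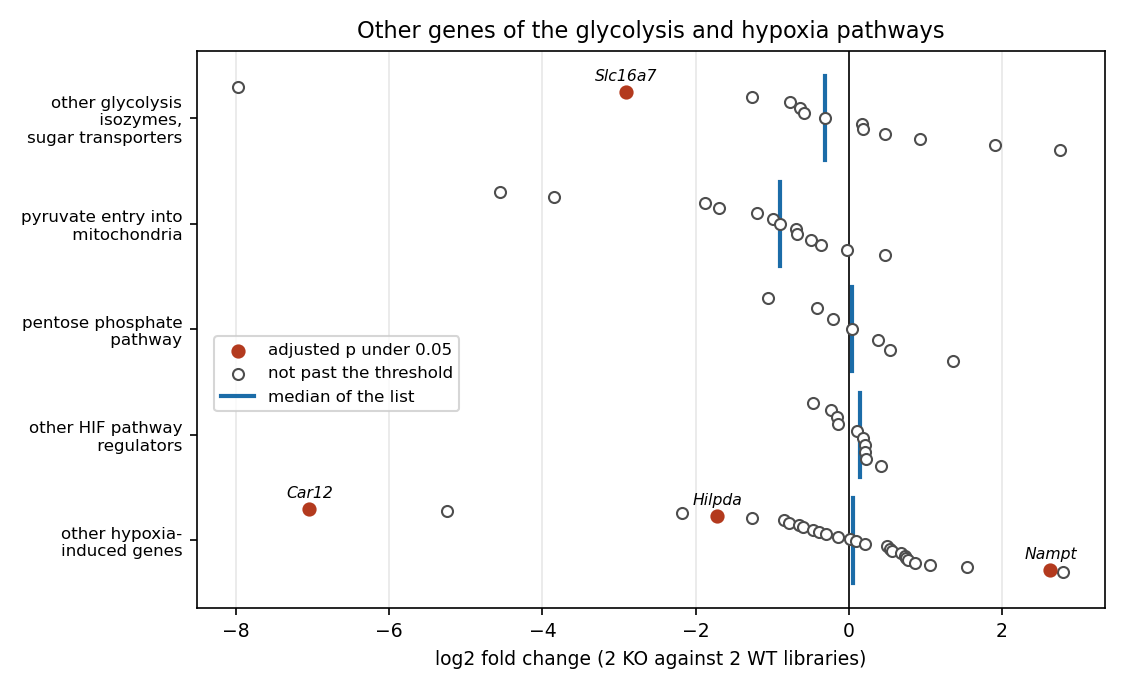
Log2 fold change over all 4 libraries of the tested genes of each pathway list outside the 36 members; each point is 1 gene, filled points passed the edgeR test and the bar is the median of the list. The pyruvate entry list lies mostly below 0 with 1 of 13 genes positive, and the other hypoxia-induced genes scatter to both sides of a median of 0.05.

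Marker sums of several cell types differed between the libraries as well. The pan-B marker sum was 99.6, 1564, 2320 and 2206 CPM, the T cell sum 11.7, 634, 488 and 468 CPM, and the erythroid sum 2016, 651, 125 and 80.5 CPM. Mitosis genes, which mark dividing cells, summed to 34.5, 115, 351 and 395 CPM. The summed level of the 36 members themselves was 2452, 1922, 3571 and 3138 CPM, higher in both KO libraries. The part of these marker levels in the member values was not tested.

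The authors' deposited table of their own comparison lists 5511 genes, 2482 as higher in KO and 3029 as lower. Its largest unadjusted p is 0.04996. The listed genes are 14.5% of the 38087 genes in the count table, of which 30898 had at least 1 read and 20695 were tested here. Of the 36 members, all tested here, 15 are in the authors' table, 13 as higher in KO and 2 as lower. In the authors' deposited table Hk3 has a log2 fold change of 5.48 (unadjusted p = 0.002998) and Slc16a3 one of 4.0 (unadjusted p = 0.002531). The 2 members listed as lower in the authors' deposited table are Ldhb at -1.58 and Aldoc at -1.59. The authors also deposited shorter lists of 86 genes higher and 71 genes lower in KO, and 0 of the 36 members are in either; how those lists were selected is not stated in them.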

How the data were processed

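Read counts per gene were deposited by the authors as raw counts for 4 libraries; the submitters' processing notes list the build mm10 and the tool DESeq2. For the aligner, counter and strand setting nothing is given in the sources used here. A deposited table of the authors' own comparison gives log2 fold changes and p-values, copied only where named. The length listed for all 38087 genes is the whole genomic span, so no length-corrected level was made, and 8 further per-sample columns were not used.

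The counts were fitted on the whole table with edgeR 4.0.16 in R 4.3.3 (TMM scaling, filterByExpr, glmQLFit, glmQLFTest, Benjamini-Hochberg), for KO against both WT libraries and against each one. TMM factors were 0.513, 1.18, 1.28 and 1.30 for WT replicates 1 and 2 and KO replicates 1 and 2. Alternatives were other scalings, other filters on low counts, DESeq2 1.42.0, limma-voom 3.58.1, a replicate block and leaving out each library. On simulated data of 20695 genes the test of all 4 libraries found 1 of 67 simulated 2-fold changes, 17 of 67 at 4-fold and 64 of 66 at 16-fold, with 7 false calls. Against WT replicate 2 alone (21844 genes) it found 53 of 67, 59 of 67 and 66 of 66, with 7 false calls. There every simulated library, the lone WT included, was drawn with the spread of that fit, which comes from the KO pair. Those counts therefore hold only if WT varies like KO, which the simulation cannot check. Count floors cover counting error only.

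Members and lists were chosen with earlier results of these data known. Members named with their full tests are those past the threshold, the smallest p in each role and the 3 highest and 3 lowest against WT replicate 2; other members are described by values, and pathway genes are named where they passed the threshold, Pdk4, Pdk2, Slc2a4, Rpia, Taldo1 and G6pdx being added after their values were seen. Marker lists for skeletal muscle (11.2, 10.1, 9.05 and 10.8 CPM in the library order above) and endothelium (117, 376, 302 and 229 CPM) were summed as well.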

Additional observations from a re-analysis of the deposited data

How the results depend on the processing

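On simulated data the test of all 4 libraries found 1 of 67 changes of 2-fold and 17 of 67 of 4-fold. Both groups were drawn there with the same spread, while in the data the WT pair differed more than the KO pair. A member that did not pass is not shown to be unchanged. The 2 members called higher became 7 with DESeq2, 4 with no filter on low counts, 0 with library totals alone and 0 to 22 when a library was left out; the 0 called lower became 4 with DESeq2, 1 with no filter and 0 to 10 when a library was left out. DESeq2's calls were Hk3, Slc16a3, Hif1a, Pfkp, Pkm, Pgk1 and Slc2a1 higher and Aldoc, Ldhb, Egln3 and Pfkm lower. The median log2 fold change of the members, 0.58, was 1.21 with library totals alone and 0.47 to 0.69 with a library left out. Against WT replicate 2 the median of 0.53 was 0.66 with library totals alone and 0.42 with totals that leave out genes over 1% of reads. Against WT replicate 1 the 10 members called lower became 5 with library totals alone, and the median of 0.59 became 1.93 with library totals alone, 0.90 with totals that leave out genes over 1% of reads and 0.42 with pseudogene reads added.

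Over all genes, the 216 called higher and 451 called lower became 1325 and 2430 with DESeq2, 542 and 1188 with no filter, 4573 and 4988 without WT replicate 1, 6887 and 6922 without WT replicate 2, and 0 and 0 without either KO library (at an unadjusted p under 0.05, 732 and 1318 without KO replicate 1 and 743 and 1342 without KO replicate 2). With library totals alone edgeR called 0 and 0, with 1482 and 1509 at an unadjusted p under 0.05.

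Library totals alone turned the sign of Hk1 (0.63), Tpi1 (0.16), Eno2 (0.080), Pdk1 (0.0017), Egln1 (0.51), Bnip3l (0.40), Adm (0.28) and P4ha2 (0.45). Leaving out 1 library turned Hk1 (-0.52 to 0.34), Aldoa (-0.020 to 1.02), Eno2 (-0.93 to 1.62), Egln1 (-0.66 to 0.24), Bnip3l (-0.35 to 0.18) and Adm (-1.31 to 0.44), in each case through a WT library. Eno2 was also at 0.067 with limma-voom. The cause was not tested for any of these. With 0.5 reads added to each count all 13 isozyme ratios kept their direction. With a library left out 10 did, and the 3 that overlapped between the groups turned sign without WT replicate 2, Eno2 to Eno1 also without KO replicate 1 (0.064).

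The labels give both groups replicate numbers, and same-numbered libraries deviate from their group means with a correlation of -0.108 over 20695 genes. The WT libraries differ far more from each other than the KO libraries do, so this correlation cannot tell whether same-numbered libraries were paired. With the replicate block edgeR called 0 members higher (Slc16a3 adjusted p = 0.057) and 0 genes in all, with 1866 higher and 2734 lower at an unadjusted p under 0.05, and Eno2 was at 0.21. The crossed pairing, added after seeing the data, called 202 genes higher and 643 lower, with Eno2 at 0.20.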

Other observations

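The pentose phosphate pathway, which branches from glucose 6-phosphate and makes NADPH and ribose for nucleotides, showed no shared direction. None of its 7 genes passed edgeR's test of all 4 libraries, and the median log2 fold change was 0.04. At an unadjusted p under 0.05, 1 was higher and 0 lower, against 10.5% and 16.4% of all genes. Rpia, the isomerase that makes ribose 5-phosphate, had 10.9 and 23.0 CPM (WT) against 45.3 and 42.3 CPM (KO) (log2 1.36, adjusted p = 0.149). Taldo1, the transaldolase, had 333 and 146 CPM (WT) against 111 and 118 CPM (KO) (log2 -1.06, adjusted p = 0.255). G6pdx, the entry enzyme, overlapped between the groups, with 52.3 and 29.4 CPM (WT) against 57.8 and 48.6 CPM (KO) (log2 0.38, adjusted p = 0.52). With WT replicate 2 alone 3 of the 7 genes passed as higher and 1 as lower, where 20.9% and 22.8% of all genes did so. With WT replicate 1 alone 2 passed each way, where 32.3% and 32.5% of all genes did so.

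The 10 other regulators of the HIF pathway, among them Epas1, Arnt, Vhl and Hif1an, lay between -0.47 and 0.42 on the log2 scale over all 4 libraries, with a median of 0.15. None passed the edgeR test, and 0 were higher and 0 lower at an unadjusted p under 0.05, against 10.5% and 16.4% of all genes. Against WT replicate 2 alone 1 passed as higher and 0 as lower, where 20.9% and 22.8% of all genes did so. Against WT replicate 1 alone 2 passed each way, where 32.3% and 32.5% of all genes did so.

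A pair of genes of fuel choice outside the member list had wide differences that did not pass over all 4 libraries. Slc2a4, the insulin-responsive glucose transporter of muscle and fat, had 77.3 and 12.7 CPM (WT) against 0.101 and 0.231 CPM (KO) (log2 -7.97, adjusted p = 0.065). Its KO values rest on 2 and 6 reads, near the floor of 3 reads, so the size of its fold change is uncertain. Pdk2, a pyruvate dehydrogenase kinase, had 182 and 46.2 CPM (WT) against 8.05 and 7.71 CPM (KO) (log2 -3.85, adjusted p = 0.0818).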
